A study of Mus musculus with 96 samples.

Results

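The comparison described here sets the livers of fetuses whose mothers lived on an advancing light schedule against the livers of fetuses whose mothers lived on a fixed one. It takes all 12 libraries of each fetal arm, which is 24 of the 96 libraries of the series, and averages the difference over the 4 times of day with time of day in the model. All animals were C57BL/6J mice. Control mothers lived under a fixed day with 12 h light and 12 h dark, and for shifted mothers the phase of this day was moved forward by 8 h every 5 days, only while they were pregnant. Livers were collected at zeitgeber times ZT0, ZT6, ZT12 and ZT18, in hours after lights on, with 3 libraries for each arm and time. The remaining libraries are livers of the mothers, used below as a comparison, and of adult male offspring. The day of gestation, the sex of the fetuses, the litter each came from, any pooling of fetuses and the clock phase of the shifted mothers at collection were not given in the sources used here. Whether replicates are separate animals is not stated, so p-values measure the spread between these libraries, which may be in part technical.

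The fetal liver is both a young metabolic organ and the main site of blood formation. Its hepatoblasts secrete plasma proteins and only gradually take up the enzymes of gluconeogenesis, fat oxidation and bile formation, while erythroid precursors around them divide fast and make heme. Oxidative phosphorylation depends on nuclear genes for most subunits of the respiratory complexes I to IV and of ATP synthase, which is complex V. Many of these genes are known to be controlled by the factors NRF1 and GABP, the latter with a DNA-binding subunit of the ETS family. Replication-dependent histone mRNAs are peculiar in that most end in a stem-loop and not in a poly(A) tail, so poly(A) libraries such as these hold only part of them.

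Levels below are FPKM, fragments mapped to a gene relative to its length and to the size of the library, divided by 1 scaling factor per library (0.899 to 1.2). The deposited FPKM of the 24066 genes used summed to between 651529 and 804453 in control and between 619897 and 703406 in shifted libraries. The files used hold no counts, so depth and counting error are unknown. The livers carried high levels of hepatoblast markers (13 genes, Alb and Afp among them), with a summed level of 54160 to 154800 FPKM in control and 55900 to 137300 in shifted libraries. Placental markers (7 genes) summed to between 0.0064 and 10.6 FPKM in control and between 0.0235 and 7.6 in shifted libraries. Markers of pancreas and gut (8 genes) summed to between 19.06 and 120.6 FPKM in control libraries, with a median of 24.56. In shifted libraries they summed to between 17.28 and 142.9 FPKM, with a median of 22.54. Livers differed widely within both arms in G6pc, the last enzyme of glucose release and a marker of hepatocyte maturation. G6pc ran from 0.11 to 82.1 FPKM in control and from 0.215 to 68.9 in shifted libraries. It was under 5 FPKM in 4 control and 7 shifted libraries, and the cause of this spread was not tested. Xist, the noncoding RNA of the inactive X chromosome, was over 10 FPKM in 4 control and 6 shifted libraries. In the shifted arm no ZT0 library and every ZT18 library was among the 6. The 4 control libraries were ZT0 replicates 2 and 3 and ZT12 replicates 1 and 3. Changes given for a single time, ZT0 and ZT18 among them, thus also compare libraries that differ in Xist. The relation of a library's levels to the GC content of transcripts (Spearman coefficient of its deviations from the 24-library mean) ran from -0.11 to 0.38 in control libraries, with a median of 0.12, and from -0.38 to 0.17 in shifted libraries, with a median of -0.115. The 3 libraries with the lowest correlation to their arm were control ZT0 replicates 2 and 3 and shifted ZT12 replicate 3. The mean log2 level of hepatocyte maturation markers was 3.242 and 3.256 in these control libraries (control median 5.034). It was 6.385 in the shifted library, the highest of its arm (median 4.28). Leaving out these 3 libraries thus sets the arms further apart in maturation by itself. In bulk liver, fewer cells of a type and less RNA in each cell cannot be told apart.

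Many genes differed between the fetal arms by a little, and few by much. Of 12009 genes tested, 440 passed the threshold (limma, Benjamini-Hochberg adjusted p under 0.05), which is 3.66%. Without adjustment 2608 had a p under 0.05. In shifted fetuses 243 genes (2.02%) were higher and 197 (1.64%) lower. The median called change was 1.26-fold. Rises were small, with only 4 over 1.5-fold, none over 2-fold and the largest at 1.63-fold, whereas 31 falls were over 1.5-fold and 6 over 2-fold. The change had the same sign at all 4 times in 438 of the 440 genes. In 288 of them all 12 shifted libraries lay on the same side of the control mean of their time, in 126 it was 11, and the fewest was 9. The genes were called on the mean of these same 4 differences, so such agreement is in part built in by the selection. The count of called genes moved with single libraries: it was 213 when control ZT6 replicate 2 was left out and 870 when shifted ZT0 replicate 3 was.

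**Figure D1:**
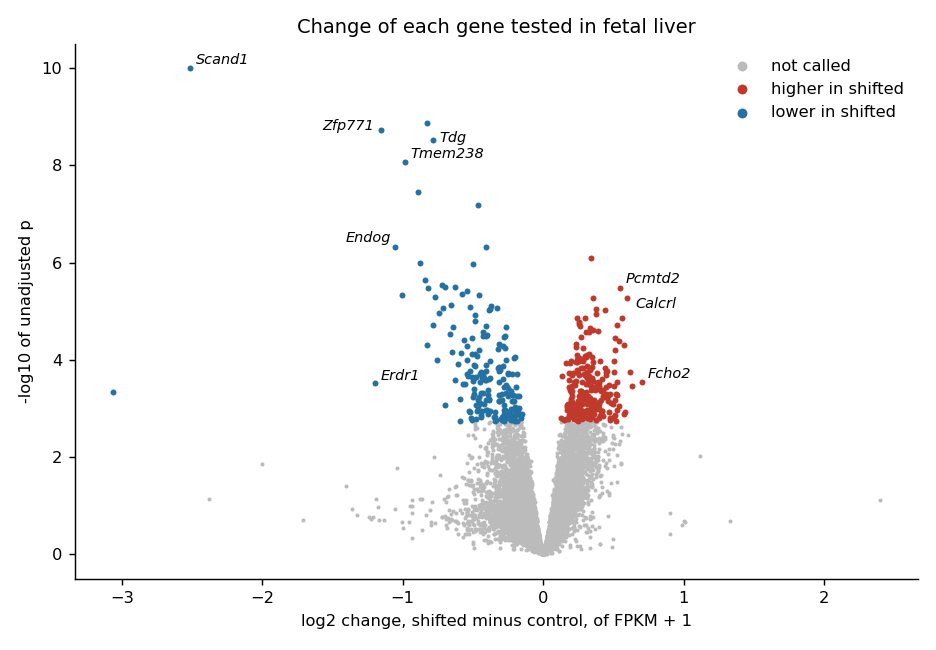
Each point is 1 of 12009 genes, with the log2 change of FPKM + 1 (shifted minus control fetuses, mean over 4 times) on the x axis and the -log10 of the unadjusted limma p on the y axis. Called genes are coloured, 243 higher and 197 lower in shifted fetuses, and the falls reach further from 0 than the rises.

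The steepest fall among named genes was that of Scand1, which encodes a SCAN domain protein without the zinc fingers of its relatives. Control fetuses ranged from 13.4 through a median of 26.8 to 42.1 FPKM, and shifted fetuses from 1.37 through 3.21 to 9.81, so the arms did not overlap. At ZT0 the shifted libraries held 1.62, 1.37 and 2.8 FPKM against 30.7, 27.3 and 14.9 in the controls. At ZT18 they held 7.97, 3.19 and 9.81 FPKM against 26.3, 32.3 and 42.1. The log2 change was -3.08 at ZT0 and -2.20 at ZT18 (SE 0.39 at each time) and -2.51 over all times (SE 0.20, adjusted p = 1.22e-06). The gene lies on chromosome 2 (156311847 to 156312704, mm10), and its longest annotated transcript has 759 nt and a GC content of 68.4%. Erdr1, named as a regulator of erythroid differentiation, ranged from 26.8 to 216 FPKM in controls with a median of 99.5, and from 14.1 to 90.5 with a median of 47.0 in shifted fetuses. Its log2 change was -1.20 (SE 0.27, adjusted p = 0.0197), with fitted changes of -2.03 at ZT0 and -0.47 at ZT18 and arms that overlapped. The arms differed in Xist at both of these times, and its part in the changes by time was not tested.

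Other large falls were in genes of varied function. Zfp771, a zinc finger gene, ranged from 2.81 to 7.99 FPKM in controls and from 0.959 to 2.95 in shifted fetuses (log2 change -1.15, SE 0.11, adjusted p = 7.61e-06). Only the ends of the 2 ranges overlapped. Tmem238, a small transmembrane protein, was at 2.51 to 7.51 FPKM in controls (median 4.0) and at 0.975 to 2.25 in shifted fetuses (median 1.87), without overlap (log2 change -0.99, SE 0.10, adjusted p = 2.05e-05). Tdg, the thymine DNA glycosylase of base excision repair and DNA demethylation, was low in both arms. It was at 1.82 to 2.74 FPKM in controls and 0.417 to 1.41 in shifted fetuses, again without overlap (log2 change -0.79, SE 0.08, adjusted p = 8.95e-06). Near-identical gene copies exist for Tdg, and how reads shared between copies were assigned is not given in the sources used here. Jund, a subunit of the AP-1 transcription factor, had a median of 20.2 FPKM in controls and 9.75 in shifted fetuses (log2 change -0.88, SE 0.12, adjusted p = 0.00106). Cebpd, Ppp1r14a (an inhibitor of myosin phosphatase) and Tpgs1 (a subunit of the tubulin polyglutamylase) fell by log2 changes of -0.77, -0.84 and -0.82. The largest fitted change of all called genes, -3.06 for the microRNA entry Mir8112, was noted after its values were seen. Its libraries ran from 15.1 to 173 FPKM in controls and from 0 to 140 in shifted fetuses, so its arms overlapped over most of their range.

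**Figure D2:**
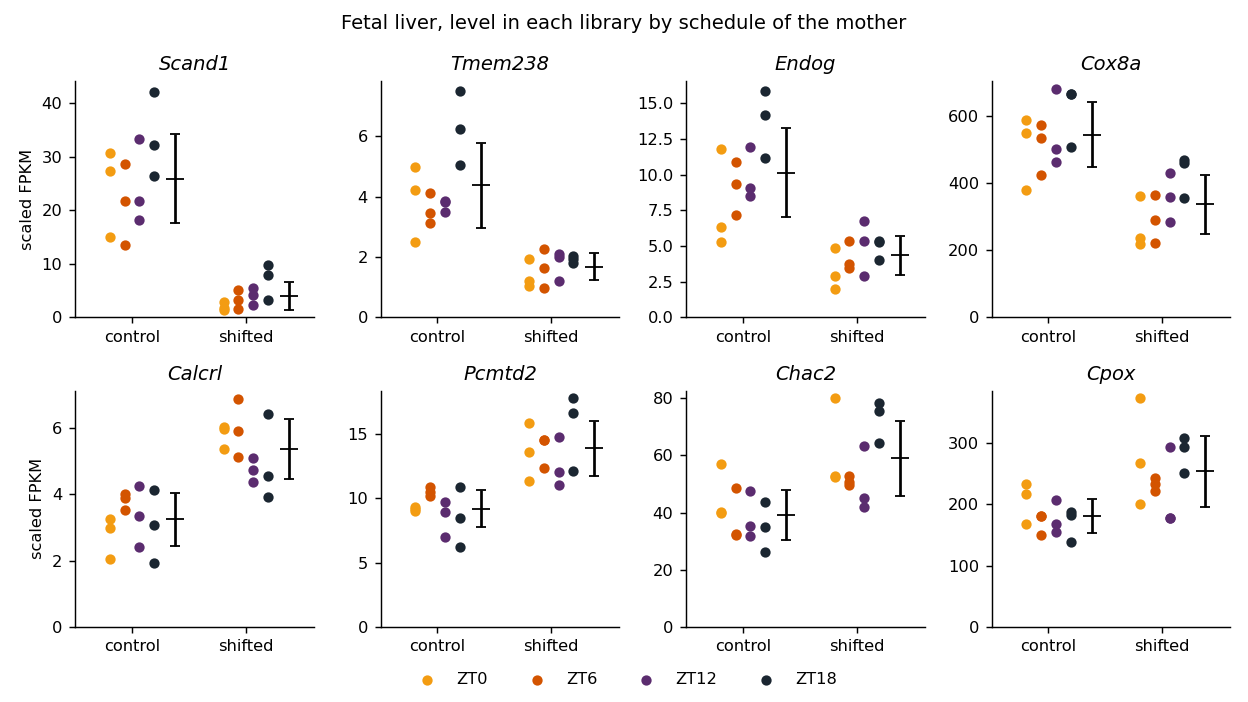
Scaled FPKM of 8 genes (y axes from 0) in each fetal library, by schedule of the mother (x axis), with points coloured by time of collection. The cross beside each arm is the mean with its SD (n = 12), and the arms of Scand1, Tmem238 and Pcmtd2 do not overlap.

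The largest rises were likewise in genes of varied function. Calcrl, the receptor for adrenomedullin and calcitonin gene-related peptide, ranged from 1.92 through a median of 3.31 to 4.27 FPKM in controls and from 3.92 through 5.25 to 6.89 in shifted fetuses. Only the lowest shifted library lay within the control range (log2 change 0.60, SE 0.10, adjusted p = 0.00258). Pcmtd2, a member of the protein carboxyl methyltransferase family, ranged from 6.2 to 10.9 FPKM in controls and from 11.01 to 17.8 in shifted fetuses, without overlap (log2 change 0.55, SE 0.08, adjusted p = 0.00222). Chac2, an enzyme that degrades glutathione, had a median of 37.6 FPKM in controls and 52.8 in shifted fetuses (log2 change 0.58, SE 0.11, adjusted p = 0.00835). Its rise was largest at ZT18, at 1.06 against 0.38 to 0.45 at the other times (SE 0.22 at each time), but the difference between times was not significant (interaction adjusted p = 0.911). Fcho2, which bends membranes in clathrin-mediated endocytosis, had the largest rise of all called genes, from a median of 11.02 to 16.4 FPKM (log2 change 0.70, SE 0.16, adjusted p = 0.0189). Sp3, Zfp800, Mzt1 of the gamma-tubulin complex and the noncoding Gt(ROSA)26Sor rose by log2 changes of 0.64, 0.62, 0.54 and 0.56. The calls of Cpeb4 and Fmr1, regulators of translation, and of Thoc2, an mRNA export factor, were less stable: each was lost in 15 or 16 of the 24 fits that leave out 1 library. Far1, an enzyme of ether lipid synthesis, lost its call in 4.

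The libraries of the arms did not overlap at all for 15 of the 12009 genes (0.125%), and all 15 were called. The 5 with lower values (0.0416%) were Scand1, Tmem238, Tdg and the unnamed gene models 4930413G21Rik and D130020L05Rik. The 10 with higher values (0.0833%) were Pcmtd2, Rbm7, Rbm25, Dr1, Mtf2, Zfp281, Zfx, Kbtbd7, Lin7c and Selt. Of these, Rbm7 belongs to a complex that targets nuclear RNA for decay, Rbm25 to splicing, Mtf2 to Polycomb repressive complex 2, and Dr1 represses transcription by binding TBP. Rbm7 was at 12.9 to 21.8 FPKM in controls and 22.1 to 26.7 in shifted fetuses (log2 change 0.37, SE 0.06, adjusted p = 0.0038). Dr1 was at 7.22 to 14.03 FPKM in controls and 14.3 to 21.4 in shifted fetuses (log2 change 0.52, SE 0.09, adjusted p = 0.00507). These 15 genes are singled out by their values, and functions they may share were not tested.

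The median change of the genes of oxidative phosphorylation was below 0 in each of the 5 complexes. All 78 nuclear subunits on the list were measured, 76 had a change below 0, 9 fell (11.5%, against 1.64% of all genes) and none rose. Their median log2 change was -0.16, against -0.01 over all genes tested, and their summed level ran from 15870 through a median of 21520 to 25340 FPKM in controls and from 15240 through 17890 to 21460 in shifted fetuses. The list was drawn up with earlier results of these data known, so its direction is a description. None of the 13 mRNAs of the mitochondrial genome was found by its symbol among the genes used, so they could not be analysed here. The 300-base RefSeq promoters (GRCm38.p6, 250 bases before to 50 after the start) of the complex IV genes Cox8a and Cox6a1 and of Scand1 are shown because Cox8a and Cox6a1 are the called subunits whose window holds a motif searched for, and Scand1 fell most among named genes. Cox8a reads chr19:7217567-7217866, minus strand, Cox6a1 chr5:115348909-115349208, minus strand, and Scand1 chr2:156312655-156312954, minus strand, each 5′ to 3′. Capitals mark matches, on either strand, to the letters CCGGAAGT, the core bound by ETS factors, in Cox8a and to the NRF1 palindrome of 10 letters in Cox6a1.
Cox8a: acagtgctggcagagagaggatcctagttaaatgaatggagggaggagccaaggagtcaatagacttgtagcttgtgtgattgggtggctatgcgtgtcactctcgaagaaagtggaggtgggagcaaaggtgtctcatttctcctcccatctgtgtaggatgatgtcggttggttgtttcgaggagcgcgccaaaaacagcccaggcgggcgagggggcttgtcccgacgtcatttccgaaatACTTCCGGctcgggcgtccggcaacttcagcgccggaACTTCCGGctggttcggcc
Cox6a1: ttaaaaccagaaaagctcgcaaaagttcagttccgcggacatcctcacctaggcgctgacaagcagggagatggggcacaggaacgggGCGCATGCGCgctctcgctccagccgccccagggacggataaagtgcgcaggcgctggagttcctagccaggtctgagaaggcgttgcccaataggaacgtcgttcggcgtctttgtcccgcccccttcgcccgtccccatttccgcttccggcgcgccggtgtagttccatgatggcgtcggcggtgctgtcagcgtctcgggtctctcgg
Scand1: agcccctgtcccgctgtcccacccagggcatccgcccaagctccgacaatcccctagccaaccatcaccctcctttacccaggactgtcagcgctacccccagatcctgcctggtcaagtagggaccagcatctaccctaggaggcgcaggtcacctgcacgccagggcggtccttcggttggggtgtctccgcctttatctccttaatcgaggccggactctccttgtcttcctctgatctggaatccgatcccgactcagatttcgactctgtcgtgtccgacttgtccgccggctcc

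Cox8a held 2 matches to the ETS letters, both as the reverse complement, Cox6a1 held 1 match to the NRF1 letters, and neither of these motifs was found in the Scand1 window. Over all 32851 promoters in the table, 3.89% held the ETS letters and 0.971% the NRF1 letters. Of the 66 oxidative phosphorylation genes matched to a promoter, 5 held the ETS letters and 5 the NRF1 letters (7.58% each), against 9.26% and 2.35% of the 9640 tested genes matched in the same way. A motif of the factor YY1 was also searched and was held by 5 of the 66 (7.58%), against 2.46% of tested genes and 0.852% of all promoters. Of the 8 called members with a promoter, Cox8a alone held ETS letters and Cox6a1 alone NRF1 letters. A match is only a run of letters and was not tested for binding.

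Complex IV, cytochrome c oxidase, held the most calls, 4 of its 12 members. Cox8a ranged from 377 through a median of 540 to 680 FPKM in controls and from 218 through 357 to 468 in shifted fetuses (log2 change -0.71, SE 0.12, adjusted p = 0.00335). By time, from ZT0 to ZT18, its change was -0.90, -0.82, -0.62 and -0.52 (SE 0.24 each). The 12 shifted libraries all lay below the control mean of their time, with some overlap of the ranges. Cox6a1 had a median of 582 FPKM in controls and 440 in shifted fetuses (log2 change -0.51, SE 0.10, adjusted p = 0.0111). Cox5b and Cox5a, the other called subunits, had medians of 417 and 183 FPKM in controls and 304 and 141 in shifted fetuses. In complex I, the NADH dehydrogenase, all 36 members had a change below 0, with a median of -0.15, and 2 fell. These were Ndufab1, the mitochondrial acyl carrier protein (median 124 against 83.5 FPKM, log2 change -0.58, SE 0.09, adjusted p = 0.00258), and Ndufb2 (112 against 90.3 FPKM, -0.39, SE 0.09, adjusted p = 0.0231). Near-identical copies of Ndufab1 exist in the mouse genome. Complex III had 1 call among 10 members, Cyc1 (log2 change -0.29, adjusted p = 0.0485), and complex II none among 4, with Sdha at -0.17 (adjusted p = 0.113). In ATP synthase Atp5d and Atp5b fell, the catalytic subunit Atp5b from a median of 613 to 520 FPKM (log2 change -0.23, SE 0.06, adjusted p = 0.0431). The calls of Atp5b, Cox5a and Cyc1 were close to the threshold: they were lost in 16, 15 and 14 of the 24 fits that leave out 1 library, with changes of -0.249 to -0.199, -0.589 to -0.453 and -0.328 to -0.254.

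Other mitochondrial genes were mixed. In the mitochondrial ribosome 8 of 77 members fell (10.4%, against 1.64% of all genes) and none rose. Of the 77, 61 were below 0, and the median log2 change was -0.08. Mrps24 had a median of 23.4 FPKM in controls and 16.3 in shifted fetuses (log2 change -0.52, SE 0.09, adjusted p = 0.00335), and Mrps15, Mrpl52 and Mrpl34 fell by log2 changes of -0.40, -0.44 and -0.45. Of 80 cytosolic ribosomal genes only Rps2 fell (log2 change -0.32), a gene with near-identical copies, and the median of the list was -0.02. Endog, a mitochondrial nuclease, was at 5.26 through 10.1 to 15.9 FPKM in controls and at 1.99 through 4.44 to 6.78 in shifted fetuses (log2 change -1.06, SE 0.14, adjusted p = 0.000651). Among the other regulators of the organelle, Gabpa, the DNA-binding subunit of GABP, rose (7.25 against 8.53 FPKM in the median, log2 change 0.26, SE 0.07, adjusted p = 0.0347), a call lost in 13 of the 24 fits that leave out 1 library. Nrf1, Tfam and Ppargc1a, the transcription factor, the mitochondrial DNA packager and the coactivator of mitochondrial biogenesis, were at log2 changes of 0.07, -0.01 and 0.00 (SE 0.09, 0.05 and 0.09, adjusted p = 0.652, 0.944 and 0.983). In the list of fat oxidation and ketogenesis all 24 tested members were below 0 with a median of -0.22, and 1 fell, the carnitine palmitoyltransferase Cpt2 (18.4 against 15.8 FPKM, log2 change -0.28, SE 0.07, adjusted p = 0.0337, lost in 12 of those 24 fits). The median of this list was -0.0028, with 14 of 24 below 0, when the level of hepatocyte maturation markers was a covariate. It was -0.37 without the 3 libraries of lowest correlation, whose removal also widens the arm difference in maturation markers. None of 14 genes of fatty acid synthesis passed, 13 of them below 0.

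Other metabolic lists of the liver held no call, with most changes below 0. In gluconeogenesis and glycogen metabolism 12 of 13 members were below 0 (median log2 change -0.36), in urea cycle and amino acid catabolism 13 of 13 (-0.25), in cholesterol synthesis and uptake 14 of 17 (-0.07) and in the TCA cycle 12 of 17 (-0.08). Pck1, the first committed enzyme of gluconeogenesis, was at 0.419 through 2.55 to 34.7 FPKM in controls and 0.412 through 0.668 to 11.8 in shifted fetuses (log2 change -0.81, SE 0.50, adjusted p = 0.342). Its spread within each arm exceeded the difference between them. Hgd, which degrades homogentisate in tyrosine breakdown, was at 36.8 to 92 FPKM in controls and 29 to 72.3 in shifted fetuses (log2 change -0.42, SE 0.15, adjusted p = 0.117). Srebf1, the transcription factor of fatty acid synthesis, was at 20.5 to 41.3 FPKM in controls and 20.9 to 31.7 in shifted fetuses (log2 change -0.27, SE 0.08, adjusted p = 0.066).

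**Figure D3:**
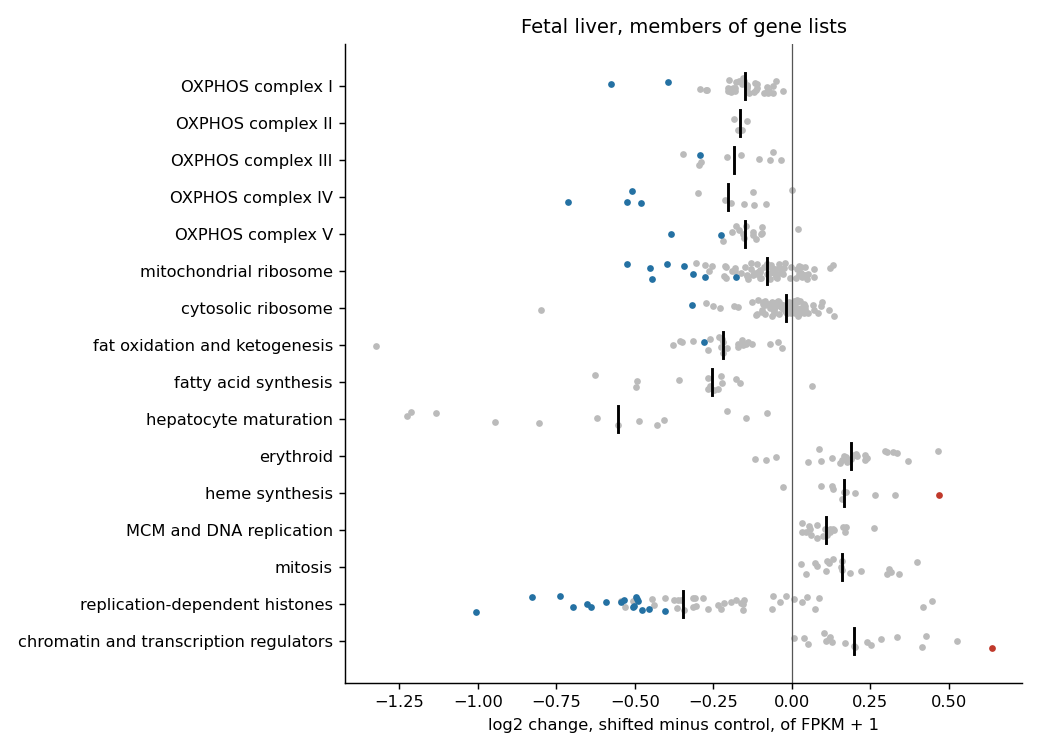
Each point is the log2 change of 1 tested gene (x axis, shifted minus control fetuses) in the gene lists (y axis), blue where it fell, red where it rose and grey where it was not called. Black bars are list medians, and the vertical spread of points within a list carries no value.

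Among replication-dependent histone genes the calls were all falls. Of 54 tested, 17 fell (31.5%, against 1.64% of all genes), none rose, 47 were below 0 and the median log2 change was -0.35. Hist1h2ag, an H2A gene, was at 0.749 through 2.54 to 4.13 FPKM in controls and at 0.113 through 0.603 to 2.21 in shifted fetuses (log2 change -1.01, SE 0.16, adjusted p = 0.00258). Hist1h2ac, Hist1h2ae and Hist1h2ba fell by log2 changes of -0.70, -0.83 and -0.74. All 12 shifted libraries were below the control mean of their time for Hist1h2ac and Hist1h2ae, and 11 for Hist1h2ba. Most of the called histone genes were at a few FPKM, where adding 1 before the logarithm shrinks the fold, and their coding sequences are close copies of each other. The genes that copy DNA and divide the cell held no falls. All 20 tested genes of the MCM helicase and DNA replication (median log2 change 0.11) and all 18 genes of mitosis (median 0.16) were above 0, and none was called in either direction. The fit of all 96 libraries called 3 of the mitotic genes higher, and 16 histone genes lower and 2 higher of 47. Its spread is taken over maternal and adult offspring livers too, so these calls do not rest on the spread of fetal livers alone. Without the 3 libraries of lowest correlation the medians were 0.24 for replication and 0.3 for mitosis. Leaving these libraries out also widens the arm difference in maturation markers. Cenpe, the kinetochore motor and the mitotic gene of smallest p, was at 2.83 through 7.82 to 11.7 FPKM in controls and 6.01 through 8.13 to 17.4 in shifted fetuses (adjusted p = 0.26). Of 13 genes that hold the cell cycle, Cdkn1b, the cyclin-dependent kinase inhibitor p27 (Kip1), rose from a median of 22.8 to 28.8 FPKM (log2 change 0.44, SE 0.09, adjusted p = 0.0146). It was higher in 12 of 12 libraries.

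Most hepatocyte markers had changes below 0 and most erythroid markers changes above 0, with few calls. All 13 tested markers of hepatocyte maturation were below 0 (median log2 change -0.55) with none called. The median was -1.1 without the 3 libraries of lowest correlation. Those libraries were low in these markers among controls and high among shifted fetuses, so leaving them out widens the difference by itself. Of these markers Cyp2f2 was at 1.39 through 14.2 to 30.8 FPKM in controls and 0.833 through 5.06 to 26.5 in shifted fetuses (log2 change -0.95, SE 0.54, adjusted p = 0.311). The summed level of these markers ran from 1064 to 4639 FPKM in controls and from 1108 to 3906 in shifted fetuses. Among 14 transcription factors of hepatocytes only Cebpb fell (10.3 against 5.7 FPKM in the median, log2 change -0.59, SE 0.14, adjusted p = 0.029). Cebpb lost this call in 10 of the 24 fits that leave out 1 library, and without GC and length trends its change was -0.14 (adjusted p = 0.522). Of 30 erythroid markers listed, 25 were found by symbol among the genes used. The erythroid counts and sums given here leave out the others. Of the 25 erythroid markers found, 22 were above 0 with a median of 0.19, and none was called. The fit of all 96 libraries called 5 of the 25 higher, but its spread is not that of fetal livers alone. The summed level of the 25 markers ran from 3758 to 7882 FPKM in controls and from 3535 to 7873 in shifted fetuses. In heme synthesis, 10 of 11 genes were above 0 and 1 rose, Cpox, the mitochondrial coproporphyrinogen oxidase. Cpox was at 139 through 182 to 234 FPKM in controls and at 178 through 247 to 374 in shifted fetuses (log2 change 0.47, SE 0.11, adjusted p = 0.0209, higher in 11 of 12). Ppox, which takes the next step, and Alad, which takes an earlier one, were at log2 changes of 0.33 and 0.20 (SE 0.14 and 0.12, adjusted p = 0.175 and 0.327). With the mean level of the maturation markers as a covariate 439 genes were called, 343 of them among the 440, but several list medians moved close to 0. In that fit the median was 0.0017 for the erythroid list (12 of 25 below 0), 0.046 for heme synthesis, 0.0068 for mitosis, -0.0009 for DNA replication (10 of 20 below 0), -0.0028 for fat oxidation (14 of 24 below 0) and -0.081 for oxidative phosphorylation (71 of 78 below 0, 9 called lower). The histones had a median of -0.41.

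Markers of the other cells of the organ gave few calls. The endothelial list had 1 call in 16, Calcrl itself, and the megakaryocyte list 1 in 9, Gp1bb, a subunit of the platelet receptor for von Willebrand factor (5.07 against 2.94 FPKM in the median, log2 change -0.56, SE 0.13, adjusted p = 0.0198). None of the 18 stellate cell and matrix genes, 13 macrophage, 11 lymphocyte, 10 granulocyte and mast cell, 7 stem and progenitor cell, 4 cholangiocyte or 3 mesothelial genes tested was called. Median changes were -0.22 for the stellate, -0.17 for the macrophage, -0.20 for the lymphocyte and -0.13 for the granulocyte list (10 of 10 below 0), and 0.0041 for the megakaryocyte list. The summed endothelial level ran from 113 to 173 FPKM in controls and from 112 to 158 in shifted fetuses. None of the other 8 tested genes of the receptor system of Calcrl was called. Ramp2 and Ramp1, which decide the ligand of the receptor, were at log2 changes of -0.27 and -0.20 (SE 0.09 and 0.08, adjusted p = 0.09 and 0.16), and the ligand Adm was at -0.27 (SE 0.11, adjusted p = 0.181).

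Of 224 tested zinc finger genes named Zfp, 7 rose (3.12%) and 6 fell (2.68%), shares near the 2.02% and 1.64% of all genes, with Zfp800 and Zfp715 (log2 changes 0.62 and 0.35) among the first and Zfp771 and Zfp428 (-1.15 and -0.37) among the second. All 19 genes on the list of chromatin and transcription regulators were above 0 (median 0.20) and Sp3 rose, from 6.78 through 14.4 to 18.6 FPKM in controls to 14.7 through 21.6 to 29.2 in shifted fetuses (SE 0.15, adjusted p = 0.021). Smarca5, the motor of ISWI remodellers, and Ep300, a histone acetyltransferase, were at 0.43 and 0.28 (adjusted p = 0.0665 and 0.0721). Of 11 immediate early genes only Jun fell (3.39 against 1.9 FPKM in the median, log2 change -0.41, SE 0.10, adjusted p = 0.0299), a call lost in 9 of the 24 fits that leave out 1 library. Of 13 genes of the glucocorticoid receptor and its targets Sgk1, a kinase, rose by 0.27 (SE 0.06, adjusted p = 0.019). None of 15 genes of the core clock and its output was called for its level. Of 357 X-linked genes tested 17 rose and 1 fell, beside 2.02% and 1.64% of all genes. With the level of Xist as a covariate 301 genes were called, 294 of them among the 440.

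Called genes differed in the composition of their transcripts as well as in their level. Of 12009 genes, 11556 (96.2%) had a transcript in GENCODE M21, and the longest of each was used. Its median GC content was 40.5% in genes that rose, 57.2% in genes that fell and 49.7% in all, and its median length was 4215, 1710 and 3222.5 nt. Of 227 risers with a transcript 220 were below the median GC content of all genes, and of 185 fallers 152 were above it. Over these transcripts (genes share libraries and are no replicates) the Spearman coefficient of the change was -0.37 with GC content and 0.33 with length. The promoters of the called genes did not follow the same order, with a median GC content of 62.7% for genes that rose, 58.7% for genes that fell and 60.3% for all tested. When smooth trends with GC content and length were taken out of each library, 178 genes were called, 108 higher and 70 lower, and 129 of them were among the 440 (29.3% of these). Scand1 (log2 change -1.98, adjusted p = 1.27e-07), Tdg (-0.76, 5.17e-05), Endog (-0.73, 0.00361), Ndufab1 (-0.59, 0.00361), Cox8a (-0.56, 0.00496), Calcrl (0.41, 0.00456), Cpox (0.51, 0.0399) and Cdkn1b (0.36, 0.046) were still called by limma. Of 51 called genes recomputed, 12 lost their call. They included Zfp428 (from -0.37 to -0.047, adjusted p = 0.571), Cyc1 (from -0.29 to -0.11, 0.395), Atp5b (-0.23 to -0.13, 0.137) and Cebpb (-0.59 to -0.14, 0.522). Cox6a1 went from -0.51 to -0.24 (0.0823), and the others were Cpeb4, Fmr1, Mrpl52, Mrpl34, Gp1bb, Rps2 and Gabpa. Of the gene lists, oxidative phosphorylation went from 9 falls to 6 of 77 with a median of -0.065, the mitochondrial ribosome from 8 to 4 of 77, and the histones from 17 to 7 of 54 with a median of -0.083, against 0.012 over all genes. The median of the cytosolic ribosome turned to 0.087. The part of library composition in these changes was not tested. Each arm was deposited as a table of its own, so differences between the tables and differences between the arms cannot be told apart.

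**Figure D4:**
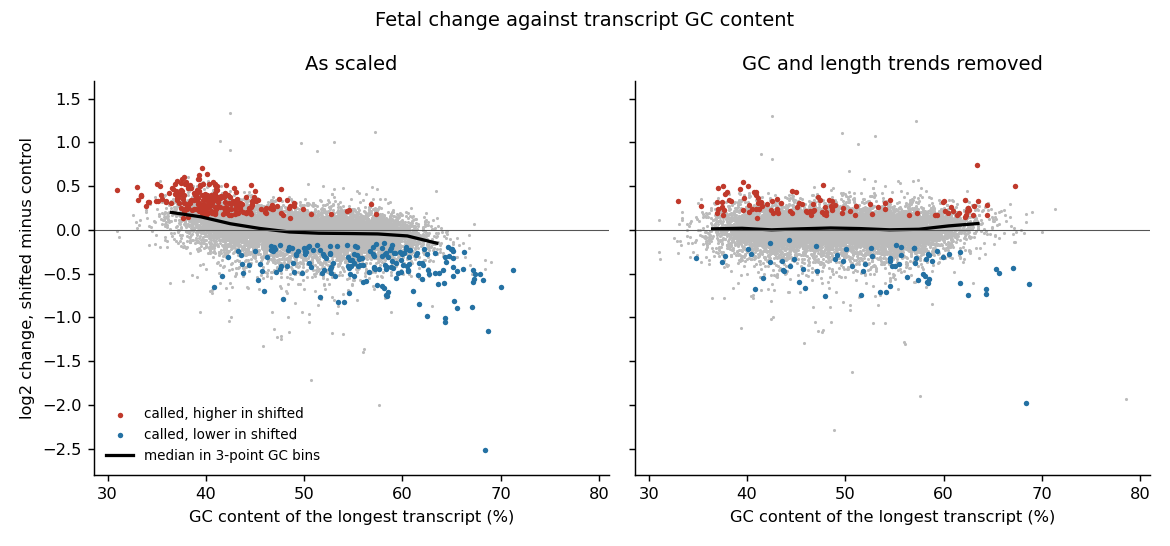
Log2 change of each gene (y axis) against the GC content in percent of its longest transcript (x axis), as scaled on the left and once GC and length trends were taken out on the right. Called genes are coloured and the black line is the median in bins 3 points of GC content wide, which falls with GC content on the left and stays near 0 on the right.

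The difference between the arms was not found to depend on time of day. No gene passed the limma test of the interaction of arm and time (0 of 12009, 0%), and the smallest adjusted p was 0.911. Unadjusted, 419 genes had a p under 0.05. The count was also 0 in every alternative fit of this test. Of the 440 genes with a change in level, 8 had an unadjusted interaction p under 0.05, beside 419 of all 12009. The 440 were chosen for their mean change over the times, so this count does not test whether their change is alike at all times. The genes of smallest p were Etaa1os, Plk3, Egr1 and Slc25a10. Egr1, an immediate early transcription factor, was at 11.2 ± 8.1 FPKM in controls and 11.3 ± 5.6 in shifted fetuses over all times (SD, n = 12).

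The livers of the mothers, who lived through the schedule themselves, were set beside those of the fetuses. Of 9915 genes tested at both stages, limma called 1525 in mothers (15.4%), 693 higher (6.99%) and 832 lower (8.39%) in shifted mothers. Of the 171 fetal falls tested in mothers, 77 fell there too (45%, or 9.25% of the maternal falls) and 1 rose. Of the 223 fetal rises, 57 rose in mothers (25.6%, or 8.23% of the maternal rises) and 1 fell. Scand1 (log2 change -1.74 in mothers), Zfp771 (-0.96), Tmem238 (-0.86), Tdg (-0.66), Endog (-0.73) and Cox8a (-0.55) were among the shared falls. The median change in mothers was -0.21 for the genes that fell in fetuses, 0.16 for those that rose and -0.0035 for all. Of 20 histone genes tested in mothers, 15 fell there (median -0.47). Of the 78 subunits of oxidative phosphorylation, 17 were called higher and 4 lower in mothers, with a median of 0.155 against -0.16 in fetuses. None of the 78 passed the test of a difference between the stages.

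That test, of the fetal change minus the maternal change in 1 fit, called 42 of 9915 genes (0.424%), 27 higher and 15 lower. It called between 8 (without control fetus ZT0 replicate 1) and 328 (without shifted fetus ZT0 replicate 3) with 1 library left out. Among the 27, the maternal change was below 0 in 27, and 26 of them fell in mothers, while the fetal change was above 0 in 23. Among the 15, all rose in mothers and all had a fetal change below 0. The 42 genes were called on the difference of these changes, so opposite signs are in part built in by the selection. The first group held 6 genes of the replication list, Mcm2, Mcm3, Mcm5, Mcm6, Mcm7 and Rrm1. Mcm5 was at 34.5 ± 5.3 FPKM in control and 35.6 ± 6.8 in shifted fetuses (SD, n = 12), a log2 change of 0.03 (SE 0.09), but fell by 0.78 in mothers (SE 0.11), a difference of 0.82 (SE 0.16, adjusted p = 0.0187). Mcm6 went the same way with 0.03 and -0.79 (difference 0.83, SE 0.17, adjusted p = 0.0238). In all, 15 of 18 tested genes of the replication list fell in mothers and none in fetuses, and the difference passed for the 6 named. Of the genes called in fetuses, only Cpox (0.47 in fetuses and -0.27 in mothers) and Serf2 (-0.28 and 0.23), a small protein that promotes aggregation of other proteins, differed between the stages.

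**Figure D5:**
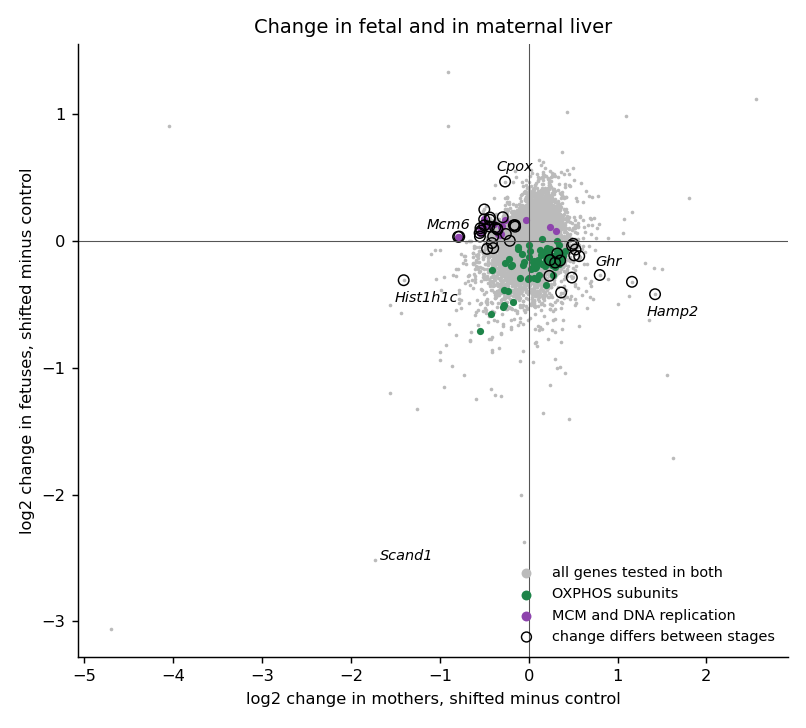
Log2 change in fetal liver (y axis) against that in maternal liver (x axis), shifted minus control, for 9915 genes tested in both. Open circles mark the 42 genes whose change differed between the stages, with the replication genes left of 0 near the axis and Ghr and Hamp2 to the right below it.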

How the data were processed

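Liver poly(A) RNA of 24 fetal and 24 maternal libraries was analysed, from stranded mRNA libraries per the labels' protocols. The authors deposited FPKM, made with TopHat2 2.1.1 and Cufflinks 2.2.1 on mm10 per the submitters' processing notes. Annotation, filters and the handling of shared reads are not given in the sources. Each of the 8 arms was deposited as a table of its own with 24883 entries, and 817 entries under 280 repeated symbols were left out. The tables hold no counts, so depth is unknown and no count test was run.

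FPKM were divided by median-of-ratios factors computed among the 24 libraries of a stage, from genes over 1 FPKM in every library (10215 in fetuses). Genes reaching 1 FPKM in 3 or more libraries were tested as log2(FPKM + 1) with limma 3.58.1 under R 4.3.3. Each combination of arm and time had its own mean, and the variance prior followed a trend with intensity. Fold changes on this scale understate the change of low genes. The contrast was the mean of the 4 time differences, with Benjamini-Hochberg adjustment over all genes tested and a threshold of 0.05. The change in fetuses minus that in mothers was tested in 1 fit of the libraries of both stages. Named genes were the 12 steepest rises and the 12 steepest falls among called genes averaging 1 FPKM or more in an arm. Of each list with a called member, up to 4 members of smallest p were eligible, called or not. Of each list without a call, up to 3 were. All measured genes of the adrenomedullin receptor, mitochondrial regulator and sex chromosome lists were eligible too. So were the 4 genes of smallest interaction p and the 6 called genes of largest difference between stages. Genes outside this rule that are named for not overlapping between arms were picked after their values were seen. The comparison, its members and the lists were chosen with earlier results of these data known. Transcript length and GC content came from GENCODE M21, promoters from RefSeq (GRCm38.p6), both on the build of the tables, read with Python 3.11.15. The fit was tested on simulated data with known changes. Alternatives were another pseudocount, no filter, values as deposited, upper quartile scaling, replicate blocks, removal of GC and length trends (splines with 4 degrees of freedom), no intensity trend, array weights, Xist or maturation as covariates, no time term, all 96 libraries in 1 fit and each library left out. Leaving out the 3 libraries of lowest correlation and fitting each stage alone were chosen after seeing the data.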

Additional observations from a re-analysis of the deposited data

Results flagged for a closer look

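The change differed between fetuses and mothers, by the test of the difference itself (limma, Benjamini-Hochberg adjustment over 9915 genes), for 8 of the genes selected for naming. The growth hormone receptor Ghr rose in mothers by 0.80 and was at -0.27 in fetuses (difference -1.07, SE 0.25, adjusted p = 0.0475). Hamp2, a hepcidin gene, rose by 1.42 in mothers, whereas in fetuses it was listed at 0 in at least 1 library of each arm and at most at 2.64 FPKM (difference -1.84, SE 0.41, adjusted p = 0.0454). Fam47e rose by 1.16 in mothers and was at -0.32 in fetuses (difference -1.49, SE 0.35, adjusted p = 0.0454). The linker histone Hist1h1c fell by 1.41 in mothers and was at -0.31 in fetuses (difference 1.1, SE 0.26, adjusted p = 0.0475). Mcm5 and Mcm6, subunits of the replicative helicase, had differences of 0.815 and 0.827, Cpox of 0.734 (SE 0.17, adjusted p = 0.0454) and Serf2 of -0.509 (SE 0.12, adjusted p = 0.0454). With 1 library left out, Mcm5 kept its call in all 48 fits and Mcm6 lost it in 1. The others lost it often: Hamp2 in 21 of 45 fits, Cpox in 30 of 48, Serf2 and Fam47e in 31, Ghr in 32 and Hist1h1c in 36.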

How the results depend on the processing

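The count of 440 genes was within 1.5 times under a pseudocount of 0.1 (415), no filter (319), upper quartile scaling (425), no intensity trend (456), Xist as a covariate (301), maturation markers as a covariate (439), no time term (566), all 96 libraries in 1 fit (616) and without the 3 libraries of lowest correlation (303). It fell to 190 with values as deposited and to 178 without GC and length trends, and rose to 1247 with array weights, whose estimation did not converge. With all 96 libraries, where the spread is taken over maternal and adult offspring livers too, 68% of the calls were rises, against 55.2%. With 1 library left out it ran from 213 to 870, and 13 of 24 fits stayed within 1.5 times. The 42 genes that differed between fetuses and mothers became 62 with a pseudocount of 0.1, 49 without the filter, 47 without the trend, 39 with each stage fitted alone, 85 with values as deposited, 24 with upper quartile scaling, 26 without GC and length trends and 855 with array weights, and 8 to 328 with 1 library left out. Of these, 64.3% were higher, against 92.9% with values as deposited, where the median of all genes was 0.11, and 41.7% with upper quartile scaling. The interaction test called 0 in all of its fits. The cause of these moves was not tested. No change of the 52 called genes recomputed turned its sign in any fit. Their calls ended for 10 without the filter, 10 with values as deposited, 12 of 51 without GC and length trends, 7 with Xist, 2 with maturation, 11 in the fit of 96 libraries and 13 without the 3 libraries.

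Whether replicate numbers pair the fetuses is not given in the sources used here. The 12 correlations between same-numbered control and shifted libraries ran from -0.671 to 0.79 (median -0.0757), with 3 over 0.1. With 3 libraries for each arm and time they cannot decide it. With the number as a block 530 genes were called, and with time and number as a block 124, which ended 24 of the 52 calls. Depth is unknown, so the precision of low FPKM could not be given.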
